A study of Homo sapiens with 12 samples.

Results

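The 33 genes described here act at the start and during the course of DNA synthesis, and each was found by its symbol in the count tables of KYSE150 cells. They are 33 of the 58735 gene IDs in the 24 h table and of the 38318 in the 48 h table, and each symbol matched 1 ID in both. KYSE150 is an established line of human oesophageal squamous cell carcinoma. In the study a small interfering RNA (siRNA) was used to lower ANLN, which encodes the actin-binding cytokinesis scaffold anillin, and poly(A) RNA was sequenced afterwards. The 4 groups were siANLN for 24 h, a control siRNA (siNC) for 24 h, siANLN for 48 h and siNC for 48 h. Each had 3 libraries that the labels call biological replicates, and no other allele or agent is named. The labels give neither the siRNA sequences nor whether replicates were separate transfections, so differences are between these 2 reagents and p-values measure the spread between these libraries.

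Before S phase the origin recognition complex, CDC6 and CDT1 load rings of MCM2 to MCM7 onto DNA, a step called licensing. Cyclin E with its kinase, and the E2F transcription factors, mark the entry into S phase, when CDC45 and GINS join the MCM ring to make the active helicase and polymerases, clamp loader and the PCNA clamp assemble at the fork. Ribonucleotide reductase, thymidylate synthase and thymidine kinase supply deoxynucleotides, and chromatin assembly factor 1 and histone mRNA processing supply the new nucleosomes. The 33 genes were therefore taken as 10 licensing genes, 11 fork genes, 4 nucleotide supply genes, 4 genes of chromatin and histone supply and 4 of S phase entry. In bulk RNA a change in the number of cells in a phase and a change in RNA per cell cannot be told apart.

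ANLN itself had 104 ± 6.12 CPM in siANLN libraries against 892 ± 17.0 CPM in siNC libraries at 24 h, and 80.8 ± 5.36 against 731 ± 8.09 CPM at 48 h (CPM, counts scaled to a common library total with TMM factors, mean ± SD, n = 3 each). Thus 11.6% and 11.1% of its RNA remained at 24 h and 48 h. Total counts per library ran from 14891932 to 17921808 at 24 h and from 11805488 to 12448411 at 48 h. The 11 squamous marker genes summed to between 4516 and 4619 CPM in siANLN and between 7171 and 7444 CPM in siNC at 48 h, and to between 5059 and 5227 against between 6009 and 6339 CPM at 24 h. Of these 11, KRT5 and KRT14 were among the 9 called lower at 48 h (2 higher) and the 7 called lower at 24 h (1 higher). Markers of other cell types stayed low: the 6 fibroblast markers summed to at most 11.8 CPM in siANLN and 20.0 CPM in siNC at 48 h, nearly all of it COL1A1, and the leukocyte marker PTPRC was at 0 in all libraries at 24 h. CD68 alone reached 63.8 ± 0.283 CPM in siANLN and 38.6 ± 3.83 CPM in siNC at 48 h. It was called higher there (log2 0.73), and COL1A1 was called lower (log2 -0.90). At 24 h CD68 had only 0 to 5 counts per library. The 6 leukocyte markers together summed to at most 1.88 CPM in siANLN and 1.42 CPM in siNC at 24 h. The 3 endothelial markers with values at 48 h (VWF, CDH5 and PECAM1) summed to at most 0.977 CPM in siANLN and 2.10 CPM in siNC, and VWF among them was called lower (log2 -1.43). The part of the lower squamous markers in the S phase results was not tested.

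At 24 h few of the S phase genes moved. All 33 were tested, 4 were called higher in siANLN and 0 lower, at an edgeR Benjamini-Hochberg adjusted p under 0.05 over all genes. Of all 14698 genes tested at 24 h, 5.93% were called higher and 4.86% lower. The 4 were the loader CDC6, the GINS subunit GINS2 and both subunits of ribonucleotide reductase, RRM1 and RRM2. The median log2 change of the 33 (siANLN over siNC) was 0.07, with 25 above 0, against a median of -0.005 over all genes tested. In 8 of the 33 every siANLN library lay above every siNC library and in 0 below. Groups did not overlap for 25.6% of all genes, so 8 of 33 is close to the background. At an unadjusted edgeR p under 0.05, 10 of the 33 were higher and 0 lower, and 0 were lower by DESeq2 or by limma on the authors' FPKM. The share of all genes under that unadjusted threshold was not computed, so the 10 cannot be set against a background. Of the 4 calls, 2 were lost without siANLN replicate 2, siNC replicate 2 or siNC replicate 3, and CDC6 and GINS2 were called under all 14 alternatives run.

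At 48 h more of them were called, the larger part higher. Of 32 tested, 18 rose in siANLN and 4 fell, while 22.2% of all 16994 genes tested were called higher and 21.3% lower. Fewer passed as higher in other fits: 12 by DESeq2 and with libraries scaled by their totals alone, and 10 or 11 by limma on FPKM (pseudocount 1 or 0.1), with 4 lower in each of the first pair and 5 lower on FPKM. Over all genes, calls in either direction numbered 7402 in the reported fit and 5475 by DESeq2. They numbered 7403 with totals alone, and 5997 and 5999 on FPKM. Shares by direction were not computed for these other fits. The median log2 change was 0.13, with 25 above 0, against -0.003 over all genes. With libraries scaled by their totals alone it was 0.09, against -0.039 over all genes. Groups did not overlap for 22 of the 32, in 17 with siANLN above and in 5 below, against 49.7% of all genes. The genes that fell were MCM6, PCNA, CCNE1 and CCNE2. E2F2 was not tested at 48 h, since its libraries held only 0 to 3 counts each. Together the 33 genes took between 0.3597% and 0.3602% of all counts in siANLN libraries and between 0.335% and 0.337% in siNC libraries at 48 h. At 24 h they took between 0.452% and 0.463% in siANLN and between 0.443% and 0.444% in siNC.

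**Figure D1:**
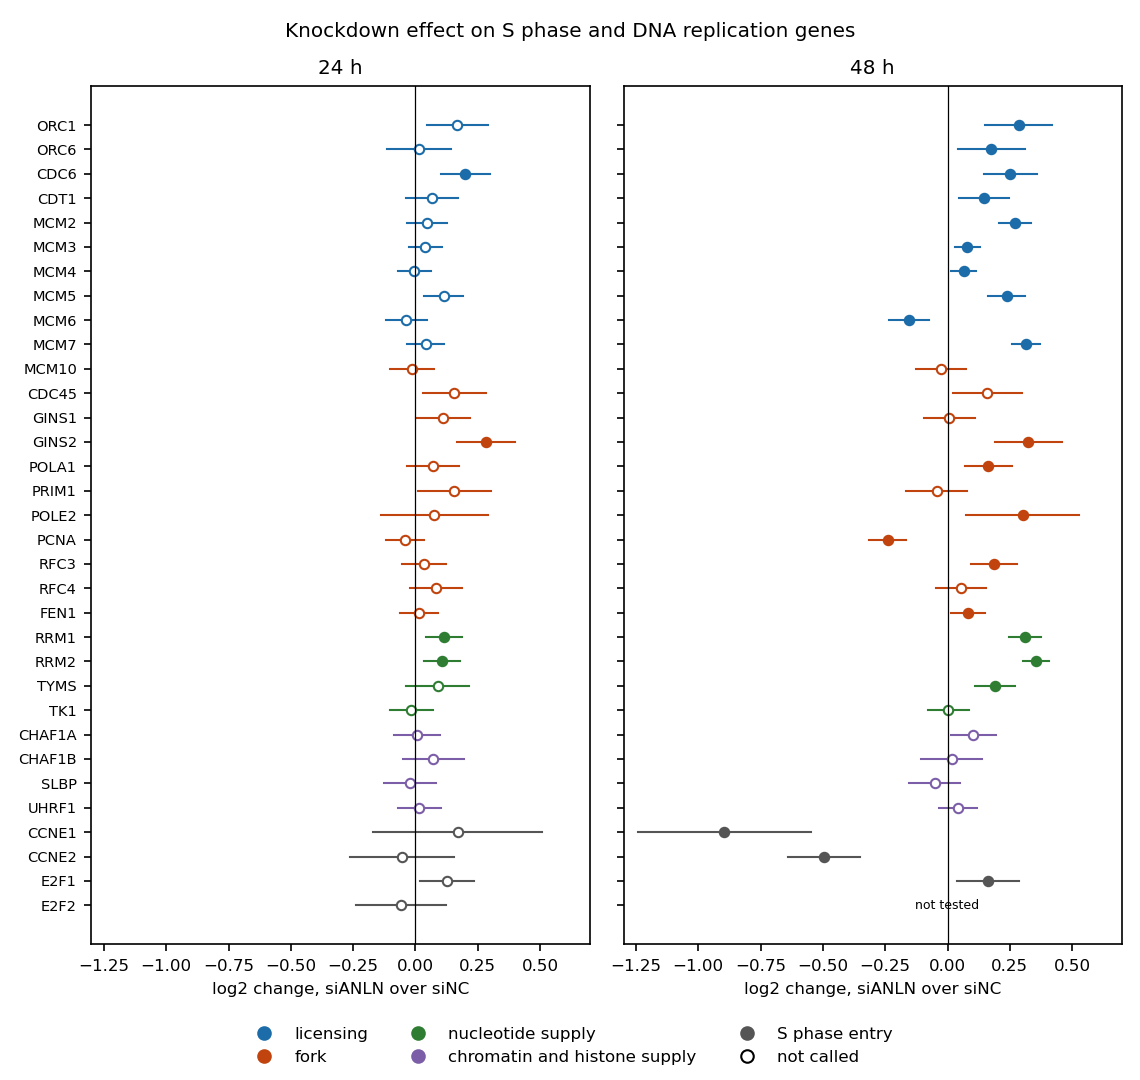
Log2 change (siANLN over siNC, x axis) of the 33 S phase genes at 24 h (left) and 48 h (right), coloured by role, with 95% confidence intervals as bars; filled points were called at an edgeR Benjamini-Hochberg adjusted p under 0.05. Points sit near 0 at 24 h; at 48 h 18 filled points lie right of 0, and MCM6, PCNA, CCNE1 and CCNE2 lie left of it.

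Most licensing genes were called higher at 48 h: 9 of 10 rose and MCM6 fell, with a median log2 change of 0.21. Over all genes tested, 22.2% were called higher and 21.3% lower. The ORC6, CDT1 and MCM4 calls were lost under DESeq2. These and the MCM3 call were lost with libraries scaled by their totals alone. MCM7, a subunit of the hexameric MCM helicase (GRCh38, chromosome 7, 100092728 to 100101940, minus strand), had 316, 325 and 317 CPM in siANLN libraries against 250.2, 257 and 262 CPM in siNC libraries at 48 h. The groups lie well apart, and the log2 change was 0.31 (SE 0.03, edgeR Benjamini-Hochberg adjusted p = 1.17e-23). MCM2, the subunit that also holds histones at the fork (chromosome 3, 127598223 to 127622436, plus strand), had 204, 212 and 201 CPM in siANLN against 167, 167 and 177 CPM in siNC. The log2 change of MCM2 was 0.27 (SE 0.03, adjusted p = 1.86e-14 by the same edgeR test), again without overlap. MCM5, which forms the gate through which the ring opens with MCM2, had 136, 138 and 132 CPM in siANLN and 115, 114 and 116 CPM in siNC, a log2 change of 0.24 (SE 0.04). By contrast MCM6 (chromosome 2, 135839626 to 135876426, minus strand) had 103, 92.0 and 98.2 CPM in siANLN against 111, 109.8 and 106 CPM in siNC. Every siANLN library was below every siNC library, and MCM6 fell by 0.16 on the log2 scale (SE 0.04, edgeR Benjamini-Hochberg adjusted p = 0.000578). None of these 4 was called at 24 h, and their log2 changes were 0.04 (MCM7), 0.05 (MCM2), 0.11 (MCM5) and -0.04 (MCM6).

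The promoters of 3 MCM genes, those with the largest log2 changes upward and the single fall among the MCM subunits, are shown because 2 of the genes rose and the other fell, and each holds E2F-type letters. They are windows of 250 bases before to 50 after a RefSeq start on GRCh38.p14, read in the direction of the gene, with MCM7 at chr7:100101348-100101647 (minus strand), MCM2 at chr3:127598161-127598460 (plus strand) and MCM6 at chr2:135876394-135876693 (minus strand). Capitals mark TTTGGCGC, TTTCCCGC, TTTGCCGC or TTTCGCGC on either strand.
MCM7: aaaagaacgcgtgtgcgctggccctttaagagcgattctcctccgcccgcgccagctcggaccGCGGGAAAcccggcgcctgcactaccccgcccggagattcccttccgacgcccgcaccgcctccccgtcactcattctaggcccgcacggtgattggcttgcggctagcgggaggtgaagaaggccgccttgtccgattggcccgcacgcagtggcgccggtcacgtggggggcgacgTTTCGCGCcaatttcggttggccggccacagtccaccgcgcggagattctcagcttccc
MCM2: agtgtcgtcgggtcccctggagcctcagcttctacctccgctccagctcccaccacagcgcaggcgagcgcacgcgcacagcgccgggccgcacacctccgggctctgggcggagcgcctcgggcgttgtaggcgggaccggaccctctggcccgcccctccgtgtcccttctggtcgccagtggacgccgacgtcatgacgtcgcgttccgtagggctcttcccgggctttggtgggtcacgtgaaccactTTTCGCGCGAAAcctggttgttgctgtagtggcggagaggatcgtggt
MCM6: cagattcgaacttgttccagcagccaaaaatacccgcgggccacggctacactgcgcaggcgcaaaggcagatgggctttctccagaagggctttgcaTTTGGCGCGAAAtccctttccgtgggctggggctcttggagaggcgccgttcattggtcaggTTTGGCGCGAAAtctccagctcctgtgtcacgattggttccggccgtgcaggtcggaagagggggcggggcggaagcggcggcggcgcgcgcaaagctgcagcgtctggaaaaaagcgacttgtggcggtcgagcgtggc
The MCM7 window shown holds 2 such words, while the other two RefSeq windows of MCM7 hold 0, MCM2 holds 2 that overlap each other, and MCM6 holds 4, as a pair of overlapping words in each of its capital runs. By separate capital runs MCM6 and MCM7 hold 2 each, so the higher word count of MCM6 than of MCM7 comes from overlapping words. A match of letters describes the sequence and is not a site.

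**Figure D2:**
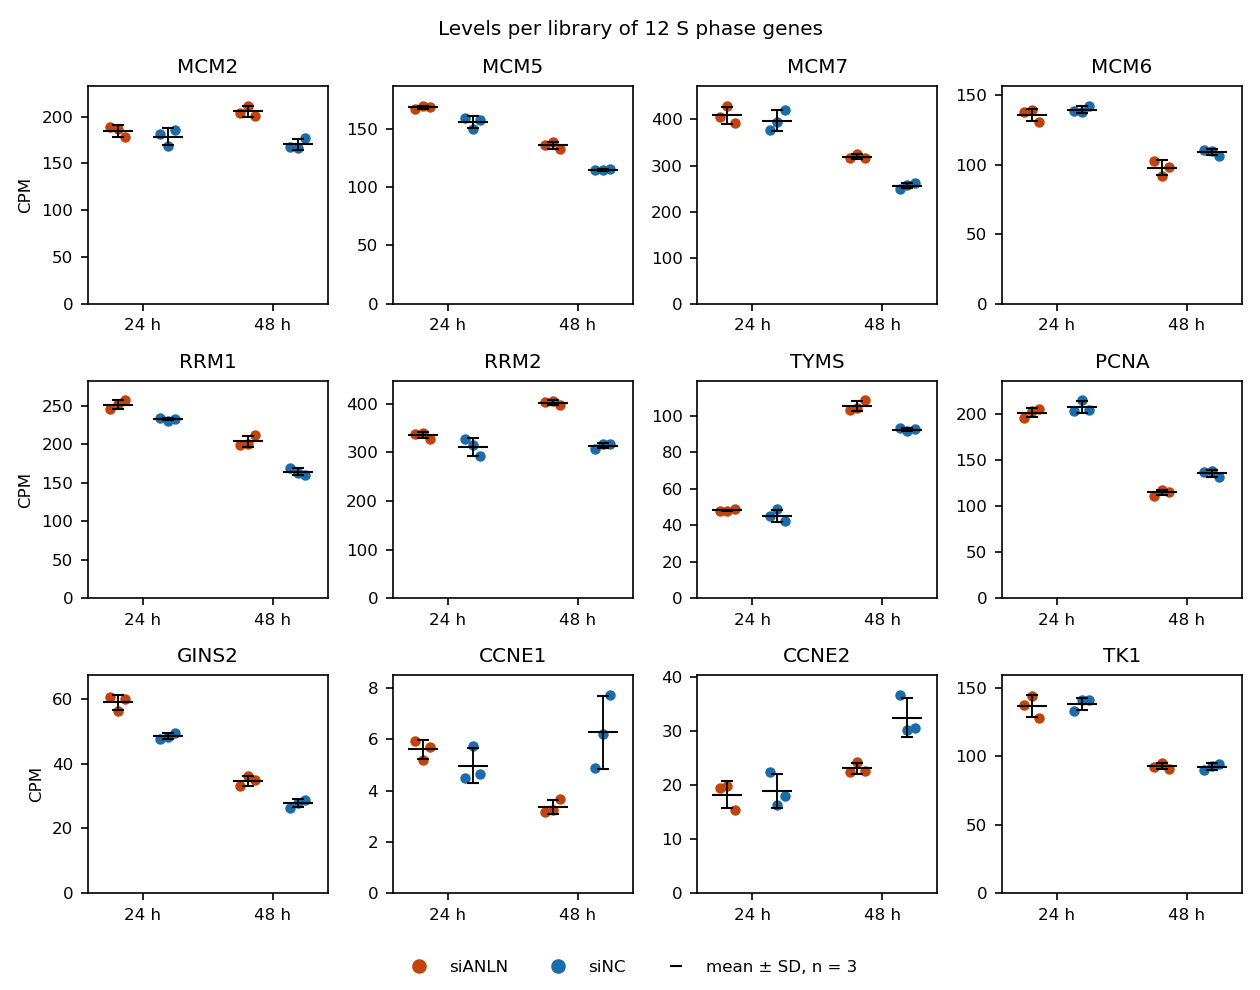
Level in each library (CPM, y axis from 0) of 12 of the genes at 24 h and 48 h, siANLN in orange left of siNC in blue, with mean ± SD (n = 3). At 48 h siANLN points lie above siNC points for MCM2, MCM5, MCM7, RRM1, RRM2, TYMS and GINS2, below them for MCM6, PCNA, CCNE1 and CCNE2, and among them for TK1.

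The other MCM subunits rose less at 48 h. MCM3 had 428, 411 and 426 CPM in siANLN against 397, 406 and 394 CPM in siNC, and MCM4 had 405, 398 and 399 CPM in siANLN against 383, 381 and 386 CPM in siNC. Their log2 changes were 0.08 and 0.06 (SE 0.03 each), both calls were lost when libraries were scaled by their totals alone (edgeR Benjamini-Hochberg adjusted p = 0.151 for MCM3 and 0.386 for MCM4), and that of MCM4 also without siANLN replicate 1 or 3 or siNC replicate 1 or 2 at 48 h (edgeR adjusted p from 0.0627 to 0.116). Because the 6 subunits form 1 ring, their make-up was also read as shares of the summed MCM2 to MCM7 counts. This reading was chosen after the values were seen and was not tested. At 48 h MCM6 made up between 5.83% and 6.46% of these counts in siANLN and between 7.37% and 7.78% in siNC, MCM7 between 19.8% and 20.6% against between 17.6% and 18.2%, and MCM2 between 12.8% and 13.4% against between 11.6% and 12.3%. Shares of MCM3 (26.1% to 27.1% against 27.4% to 28.3%) and MCM4 (25.3% to 25.4% against 26.5% to 26.9%) were also lower in siANLN. That of MCM5 was higher (8.42% to 8.77% against 7.96% to 8.07%). The count of MCM7 was 3.07 to 3.54 times that of MCM6 in siANLN and 2.26 to 2.47 times in siNC at 48 h. At 24 h the same ratio was 2.95 to 3.09 in siANLN and 2.73 to 2.97 in siNC, so that the groups overlapped there. The MCM6 share itself did not overlap at 24 h, at 6.71% to 6.90% in siANLN and 7.11% to 7.2% in siNC, and neither did that of MCM5, at 8.35% to 8.64% in siANLN and 7.73% to 8.29% in siNC. Per length the subunits were unequal in the controls: in the authors' deposited FPKM, siNC at 24 h had 159.8 ± 3.59 for MCM3, 91.2 ± 5.04 for MCM7, 71.9 ± 0.414 for MCM4, 36.7 ± 1.83 for MCM2, 34 ± 0.574 for MCM6 and 21.3 ± 0.694 for MCM5 (n = 3). At 48 h siNC means in the same order were 110.5, 52.2, 39.3, 35.1, 26.6 and 16.0 FPKM. MCM4 lay nearer to MCM2 there, so the spacing of the subunits depends on the table used.

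**Figure D3:**
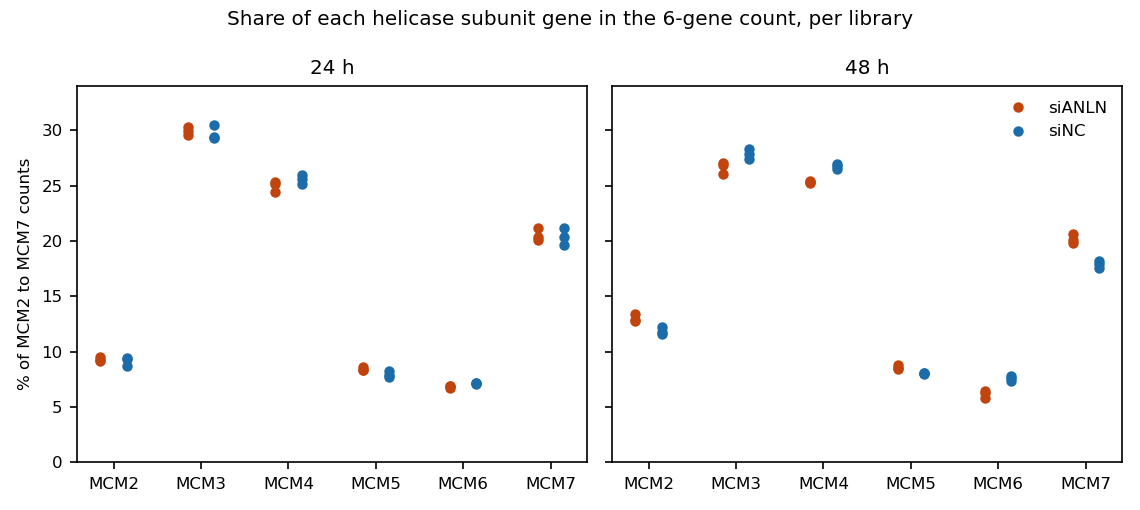
Share of each of the 6 helicase subunit genes in their summed counts (%, y axis) per library at 24 h (left) and 48 h (right), siANLN in orange left of siNC in blue. At 48 h the MCM6 share is between 5.83% and 6.46% in siANLN and between 7.37% and 7.78% in siNC. MCM3 and MCM4 shares are also lower in siANLN, while MCM7, MCM2 and MCM5 shares are higher.

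Loaders and origin binding proteins rose too. CDC6, the ATPase that recruits the MCM ring to origins, was called at both times. At 24 h it had 95.2, 95.8 and 89.0 CPM in siANLN against 82.3, 81.3 and 80.0 CPM in siNC, without overlap (log2 0.20, SE 0.05, edgeR Benjamini-Hochberg adjusted p = 0.00183). It had 60.9, 57.5 and 57.8 CPM in siANLN against 44.2, 51.7 and 52.2 CPM in siNC at 48 h (log2 0.25, SE 0.05, adjusted p = 2.7e-05 by the same edgeR test), a call that limma on log2 of FPKM plus 1 missed (adjusted p = 0.0502). ORC1, the largest subunit of the origin recognition complex, had 36.7, 33.3 and 35.3 CPM in siANLN against 29.6, 27.5 and 29.4 CPM in siNC at 48 h, a log2 change of 0.29 (SE 0.07). At 24 h the ORC1 libraries also did not overlap, at 49.4 to 51.6 CPM in siANLN and 43.1 to 46.8 CPM in siNC, but the call missed the threshold (log2 0.17, SE 0.06, edgeR Benjamini-Hochberg adjusted p = 0.0691). CDT1, which escorts the ring to origins and is destroyed once S phase begins, and ORC6, which the complex needs for loading, rose by log2 changes of 0.15 (SE 0.05) and 0.18 (SE 0.07) at 48 h. Both calls were lost under DESeq2 (adjusted p = 0.0609 for CDT1 and 0.116 for ORC6), that of CDT1 without siNC replicate 1 at 48 h (edgeR adjusted p = 0.0636) and that of ORC6 without siANLN replicate 2, siNC replicate 1 or siNC replicate 2.

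Of the 11 fork genes 5 rose at 48 h, PCNA fell and 5 were not called, with a median log2 change of 0.08. This stands beside 22.2% of all genes tested called higher and 21.3% lower. GINS2, 1 of the 4 subunits of the GINS part of the active helicase (chromosome 16, 85676198 to 85690073, minus strand), showed the largest rise of the 33 genes at 24 h. It had 60.6, 56.4 and 60.3 CPM in siANLN against 47.9, 48.3 and 49.6 CPM in siNC at 24 h, and 33.2, 36.2 and 35 against 26.5, 28.0 and 28.9 CPM at 48 h. Groups did not overlap at either time, with log2 changes of 0.28 (SE 0.06, edgeR Benjamini-Hochberg adjusted p = 0.000215) and 0.32 (SE 0.07, adjusted p = 1.68e-05). GINS1, its partner in the same complex, had 60.6, 58.7 and 59.0 CPM in siANLN against 64.6, 59.7 and 53.1 CPM in siNC at 48 h. The libraries overlapped, and the log2 change of 0.01 had a 95% interval from -0.10 to 0.11. PCNA, the sliding clamp that holds polymerases on DNA (chromosome 20, 5114953 to 5126626, minus strand), had 111, 117 and 116 CPM in siANLN against 137, 138 and 131 CPM in siNC at 48 h. It fell by 0.24 on the log2 scale (SE 0.04, edgeR Benjamini-Hochberg adjusted p = 4.21e-09), whereas at 24 h it had 195, 203 and 205 CPM in siANLN and 203, 215 and 204 CPM in siNC, which overlap.

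GINS2 and PCNA are shown as the fork genes with the largest rise at both times and the only fall. Their RefSeq windows on GRCh38.p14 are chr16:85688905-85689204 and chr20:5126573-5126872, both on the minus strand, with capitals as above.
GINS2: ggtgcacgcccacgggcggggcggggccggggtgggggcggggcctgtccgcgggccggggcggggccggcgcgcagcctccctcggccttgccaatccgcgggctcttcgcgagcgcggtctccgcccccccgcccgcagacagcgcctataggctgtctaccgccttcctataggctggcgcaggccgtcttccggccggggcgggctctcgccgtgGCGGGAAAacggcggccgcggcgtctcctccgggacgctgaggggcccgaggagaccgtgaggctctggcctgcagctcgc
PCNA: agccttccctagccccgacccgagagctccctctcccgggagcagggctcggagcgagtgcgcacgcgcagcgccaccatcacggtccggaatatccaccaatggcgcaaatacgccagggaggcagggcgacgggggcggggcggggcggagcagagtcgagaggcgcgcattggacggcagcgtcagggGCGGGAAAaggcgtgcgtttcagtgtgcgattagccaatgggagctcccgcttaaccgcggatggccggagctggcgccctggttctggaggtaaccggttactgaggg
Each holds 1 E2F-type word, the same TTTCCCGC on the opposite strand, and their RNA moved in opposite directions at 48 h. A second RefSeq window of PCNA holds 0.

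Polymerase and clamp loader subunits made up the rest of the fork genes that rose at 48 h. POLE2, the second subunit of leading strand polymerase epsilon, had 10.8, 12 and 12.5 CPM in siANLN against 9.76, 8.25 and 10.7 CPM in siNC, a narrow gap with a log2 change of 0.30 and a wide interval of 0.08 to 0.53. Its call was lost under DESeq2 (adjusted p = 0.127) and without siANLN replicate 2, siANLN replicate 3 or siNC replicate 2 at 48 h (edgeR adjusted p from 0.0576 to 0.206). RFC3, a subunit of the loader that places PCNA on DNA, rose by a log2 change of 0.19 (SE 0.05), and POLA1, the catalytic subunit of the polymerase that extends primers, by 0.16 (SE 0.05). Limma on log2 of FPKM plus 1 missed the POLA1 call (limma adjusted p = 0.162). FEN1, the nuclease that trims Okazaki fragments, rose by 0.08 (SE 0.04, edgeR Benjamini-Hochberg adjusted p = 0.0498), and that call was lost in 13 of 14 alternatives. RFC4, another loader subunit, MCM10, which helps to activate the helicase, CDC45, and PRIM1, the primase, were not called at 48 h, with log2 changes of 0.05, -0.03, 0.16 and -0.04. For CDC45 the interval of 0.02 to 0.30 (edgeR Benjamini-Hochberg adjusted p = 0.0553) reaches above the log2 changes called for FEN1, POLA1 and RFC3, and CDC45 was called without siANLN replicate 3 or siNC replicate 1 (edgeR adjusted p = 0.0289 and 0.0228). At 24 h PRIM1 had 32.3, 33.6 and 33.5 CPM in siANLN against 30.3, 29.5 and 29.4 CPM in siNC, without overlap, but the log2 change of 0.16 was not called (adjusted p = 0.189).

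Of the 4 nucleotide supply genes, 3 rose at 48 h and TK1 was not called, with a median log2 change of 0.25. Over all genes tested at 48 h, 22.2% were called higher and 21.3% lower. RRM2, the small subunit of ribonucleotide reductase that limits its activity outside S phase (chromosome 2, 10120698 to 10131419, plus strand), had 404, 406 and 396 CPM in siANLN against 307, 317 and 317 CPM in siNC at 48 h. The gap between the groups is far wider than either group, and the log2 change was 0.36 (SE 0.03, edgeR Benjamini-Hochberg adjusted p = 2.11e-32), the smallest adjusted p and the largest rise among the 33 genes. RRM1, the large subunit, had 199, 200.2 and 212 CPM in siANLN against 169, 163 and 160.2 CPM in siNC (log2 0.31, SE 0.03, adjusted p = 4.64e-18). Both subunits were also called at 24 h, by smaller log2 changes of 0.11 each (SE 0.04; edgeR Benjamini-Hochberg adjusted p = 0.0496 for RRM2 and 0.0283 for RRM1). There RRM2 had 338, 339.8 and 328 CPM in siANLN and 328, 315 and 292 CPM in siNC, so the lowest siANLN library barely exceeded the highest siNC library. Without siNC replicate 3 the log2 change of RRM2 at 24 h was 0.06 (edgeR adjusted p = 0.407), its call was also lost without siANLN replicate 1 or 2 or siNC replicate 2, and the RRM1 call at 24 h was lost without siANLN replicate 2 or 3, or any siNC replicate (edgeR adjusted p from 0.0507 to 0.13).

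TYMS, thymidylate synthase, had 103, 104 and 108 CPM in siANLN against 93.1, 91.5 and 92.5 CPM in siNC at 48 h, without overlap (log2 0.19, SE 0.04, edgeR Benjamini-Hochberg adjusted p = 2.8e-05). TK1, the salvage kinase for thymidine, stood apart from them with 92.0, 94.9 and 90.8 CPM in siANLN and 89.7, 93.1 and 94.1 CPM in siNC. Its libraries interleave, and the 95% interval of its log2 change ran from -0.08 to 0.09, which does not reach the changes of RRM1, RRM2 or TYMS. A RefSeq window of RRM2 (GRCh38.p14, chr2:10122489-10122788, plus strand) is shown because the gene with the clearest rise holds no E2F-type word in either of its windows, and here the capitals would mark such a word.
RRM2: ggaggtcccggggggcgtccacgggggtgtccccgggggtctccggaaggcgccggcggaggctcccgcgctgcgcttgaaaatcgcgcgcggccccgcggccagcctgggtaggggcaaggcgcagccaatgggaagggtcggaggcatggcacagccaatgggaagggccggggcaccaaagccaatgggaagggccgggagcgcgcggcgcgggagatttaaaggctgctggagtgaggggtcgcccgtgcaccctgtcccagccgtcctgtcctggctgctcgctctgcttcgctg
The window shown does hold the letters CCAAT or their complement 3 times.

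Chromatin and histone supply genes gave 0 calls in either direction at both times by edgeR and by DESeq2. Over all genes edgeR called 22.2% higher and 21.3% lower at 48 h, and 5.93% and 4.86% at 24 h. At an unadjusted edgeR p under 0.05, 0 of the 4 passed at 24 h and 1 at 48 h (CHAF1A), again without a computed share over all genes. CHAF1A and CHAF1B, the large and middle subunits of chromatin assembly factor 1, had log2 changes of 0.10 (95% interval 0.01 to 0.19, edgeR Benjamini-Hochberg adjusted p = 0.0565) and 0.02 at 48 h. CHAF1A was called without siANLN replicate 2 or siNC replicate 1 (edgeR adjusted p = 0.0321 and 0.0217). SLBP, the protein that binds the stem-loop of histone mRNAs, had 58.3, 58.2 and 59.1 CPM in siANLN against 61.0, 60.3 and 60.8 CPM in siNC at 48 h, and UHRF1, which brings the maintenance DNA methyltransferase to new DNA, had 112, 119.8 and 116 CPM in siANLN against 111, 113 and 113 CPM in siNC. SLBP libraries did not overlap, but its log2 change of -0.05 was not called (edgeR Benjamini-Hochberg adjusted p = 0.44). Limma on the authors' FPKM did call SLBP lower at 48 h (log2 -0.09, limma adjusted p = 0.0387). The median log2 changes of these 4 genes were 0.01 at 24 h and 0.03 at 48 h.

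S phase entry genes split at 48 h. CCNE1, the first of the cyclin E genes (chromosome 19, 29811898 to 29824308, plus strand), had 3.18, 3.23 and 3.68 CPM in siANLN against 4.88, 6.21 and 7.74 CPM in siNC at 48 h. This is the largest change among the 33 genes, and CCNE1 fell by 0.90 on the log2 scale (SE 0.18, 95% interval -1.24 to -0.55, edgeR Benjamini-Hochberg adjusted p = 2.18e-06). It rests on few reads: 39, 38 and 45 in siANLN and 59, 76 and 92 in siNC. CCNE2, the other cyclin E gene, had 22.4, 24.3 and 22.5 CPM in siANLN against 36.7, 30.1 and 30.6 CPM in siNC, without overlap, and fell by 0.49 (SE 0.07, adjusted p = 5.39e-10 by the same edgeR test). At 24 h the libraries of both cyclins overlapped, with 5.21 to 5.92 CPM in siANLN and 4.5 to 5.75 CPM in siNC for CCNE1, and 15.3 to 19.8 against 16.3 to 22.3 CPM for CCNE2. E2F1, the activator of many of these genes, had 37.1, 40.0 and 42.7 CPM in siANLN and 34.1, 34.3 and 38.7 CPM in siNC at 48 h. The groups overlap, and though the gene was called (log2 0.16, SE 0.06, edgeR Benjamini-Hochberg adjusted p = 0.0258), the call was lost in 8 of 14 alternatives, among them DESeq2 (adjusted p = 0.135) and leaving out siANLN replicate 3, siNC replicate 1 or siNC replicate 2. E2F2, a second activator, had 19.4, 22.7 and 18.8 CPM in siANLN against 21.6, 22.1 and 19.7 CPM in siNC at 24 h, which overlap, and was not called (log2 -0.06).

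CCNE1 is printed as the gene with the largest fall; its RefSeq window on GRCh38.p14 is chr19:29811741-29812040 on the plus strand and holds neither an E2F-type word nor CCAAT.
CCNE1: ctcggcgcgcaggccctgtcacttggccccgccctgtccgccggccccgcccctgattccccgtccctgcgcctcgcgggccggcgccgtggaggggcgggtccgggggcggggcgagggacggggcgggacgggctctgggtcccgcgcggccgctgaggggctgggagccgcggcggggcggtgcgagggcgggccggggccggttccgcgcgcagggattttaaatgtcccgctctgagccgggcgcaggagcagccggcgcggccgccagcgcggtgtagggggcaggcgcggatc

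Set side by side, the roles differed at 48 h in counts and in medians. Licensing and nucleotide supply had median log2 changes of 0.21 and 0.25 with 9 of 10 and 3 of 4 genes higher, fork genes 0.08 with 5 of 11 higher, chromatin and histone supply 0.03 with 0 of 4 higher, and S phase entry -0.49 with 1 of 3 higher and 2 lower, beside 22.2% of all genes higher and 21.3% lower. At 24 h the medians were 0.04 for licensing, 0.08 for fork genes, 0.10 for nucleotide supply, 0.01 for chromatin and histone supply and 0.04 for S phase entry, with 1, 1, 2, 0 and 0 genes called. Under DESeq2 the calls of ORC6, CDT1, MCM4, POLE2, FEN1 and E2F1 at 48 h were lost, so these counts depend on the fit. No test between roles was made, since the genes were chosen with results known and are not replicates. Ranges overlap: licensing genes ran from -0.16 to 0.31, fork genes from -0.24 to 0.32 and nucleotide supply genes from 0.00 to 0.36 on the log2 scale at 48 h.

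The effect at 48 h differed from that at 24 h for 7 of the 33 genes by edgeR's test of the difference itself over all 12 libraries, against 13% of the 17625 genes tested. The effect was more positive at 48 h for MCM7 (by 0.29, SE 0.05), RRM2 (by 0.27, SE 0.05), MCM2 (by 0.24, SE 0.05) and RRM1 (by 0.21, SE 0.05). It was more negative for CCNE1 (-1.05, SE 0.25), CCNE2 (-0.43, SE 0.14) and PCNA (-0.18, SE 0.05). The CCNE2 difference was lost under DESeq2 and in 7 of the 12 fits that left out a library, and the PCNA difference in 2 of them. MCM6 was not among them: its difference of -0.11 (SE 0.06, edgeR Benjamini-Hochberg adjusted p = 0.28) does not set its fall at 48 h apart from the value at 24 h. GINS2 and CDC6, called at both times, had differences of 0.06 (95% interval -0.12 to 0.24) and 0.07 (-0.08 to 0.21). Of the 32 genes tested at both times, 23 had log2 changes above 0 at both, 5 below 0 at both and 4 opposite signs. Time point and the making of each table cannot be told apart.

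**Figure D4:**
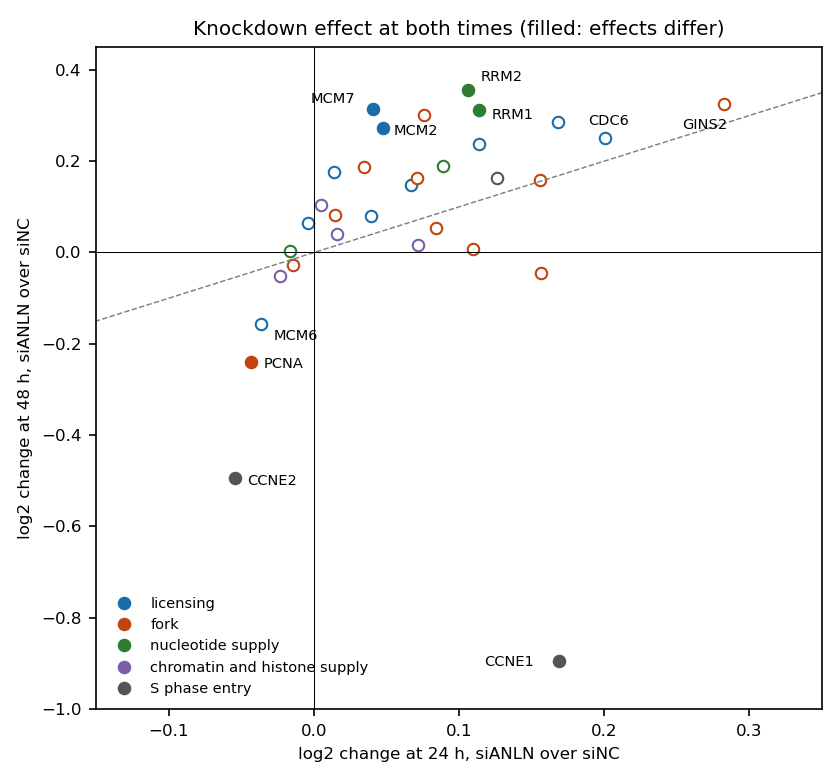
Log2 change (siANLN over siNC) at 24 h (x axis) against 48 h (y axis) for the 32 S phase genes tested at both times, coloured by role; the dashed line marks equal changes and filled points are the 7 genes whose changes differed by edgeR's test. MCM2, MCM7, RRM1 and RRM2 lie above the dashed line, PCNA, CCNE1 and CCNE2 below it, and GINS2 lies farthest right.

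Other genes of the same steps were taken from lists that do not contain the 33, and their counts stand beside 22.2% higher and 21.3% lower over all genes at 48 h and 5.93% and 4.86% at 24 h. Of 9 other licensing genes 2 rose and 2 fell at 48 h, close to those shares. ORC5, an origin recognition subunit, had 35.2 ± 0.379 CPM in siANLN against 28.3 ± 2.16 CPM in siNC (log2 0.31), and MCM9, an MCM paralogue outside the ring that acts in repair, had 26.8 ± 0.545 against 33.6 ± 1.60 CPM (log2 -0.32). Of 10 origin firing genes 1 rose and 2 fell at 48 h: GINS4, a further GINS subunit, had a log2 change of 0.34, and TICRR, which helps CDC45 to load, fell at both times, by 0.27 at 24 h and 0.23 at 48 h. Among 28 other fork genes 13 rose and 2 fell at 48 h, led by TOP1, the topoisomerase that relaxes DNA ahead of the fork, at 254 ± 4.40 CPM in siANLN against 187 ± 2.39 CPM in siNC (log2 0.44), and TIPIN, of the fork protection complex, with a log2 change of 0.43. TIMELESS, the partner of TIPIN, was called at 24 h already (log2 0.23).

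Of 15 other nucleotide supply genes 5 rose and 3 fell at 48 h, near the shares of 22.2% and 21.3% over all genes. Those named by size both fell: SAMHD1, which hydrolyses deoxynucleotides, had 104 ± 2.03 CPM in siANLN against 137 ± 3.96 CPM in siNC (log2 -0.39, edgeR Benjamini-Hochberg adjusted p = 8.53e-21), and TK2, the mitochondrial thymidine kinase, had 23.6, 22.4 and 24.8 CPM in siANLN against 28.4, 29.3 and 30.0 CPM in siNC (log2 -0.31). CTPS1, a CTP synthase, was the single call among these 15 at 24 h (log2 0.18). Of 10 further chromatin genes 3 rose at 48 h, with DNMT1, the maintenance DNA methyltransferase, and the histone chaperone RBBP4 at log2 changes of 0.21 and 0.25. At 24 h the lists held few calls: 1 of 9 licensing genes rose (GMNN, the inhibitor of CDT1), 2 of 10 origin firing genes fell (TICRR and DBF4, the regulatory subunit of the CDC7 kinase), 2 of 28 fork genes rose and 1 fell (POLE3, log2 -0.16), and 2 of 12 chromatin genes rose (NASP, a histone chaperone, log2 0.14, and RBBP4, log2 0.12).

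Of 30 other regulators of S phase entry tested, 9 rose and 6 fell at 48 h, near the shares of 22.2% and 21.3% over all genes, and 4 rose and 3 fell at 24 h, beside 5.93% and 4.86%. CDK6, a cyclin D kinase that phosphorylates RB1, had 543, 523 and 499 CPM in siANLN against 257, 250.2 and 255 CPM in siNC at 48 h (log2 1.04, SE 0.03, edgeR Benjamini-Hochberg adjusted p = 5.66e-131), and 455, 438 and 447 against 326, 305 and 307 CPM at 24 h (log2 0.51). CDKN1A, the inhibitor p21 that binds cyclin E kinase and PCNA, had 82.3, 87.3 and 82.9 CPM in siANLN against 141, 145 and 152 CPM in siNC at 48 h (log2 -0.79, SE 0.04), and 54.6 ± 0.502 against 71.6 ± 2.76 CPM at 24 h (log2 -0.39). Libraries of the groups did not overlap for either gene at either time.

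Promoter letters were read for the 30 of the 33 genes with a RefSeq window. An E2F-type word lay in 16 of these 30 (53.3%) and in 1090 of all 27305 genes with a window (3.99%). CCAAT or its complement, the letters that NF-Y binds, lay in 19 (63.3%) against 39.7% of all genes, and TTTGAA or its complement, a core of the element that marks many G2/M promoters, lay in 1 (3.33%, RRM1) against 18.2%. E2F-type words were present in 11 of the 16 genes with a window that rose at 48 h, in 2 of the 3 that fell (MCM6 and PCNA), in 2 of the 10 not called (GINS1 and UHRF1) and in E2F2. RRM2 and CCNE1, printed above, held none and moved in opposite directions. The E2F-type words counted leave out the related letters TTTGGCGGG. On either strand, those stand in windows of CDC45, MCM10 and CHAF1A, which were not called and count above as holding no word. They also stand in windows of CDC6 and CDT1, which rose and hold a listed word. The counts thus depend on the words listed, describe letters in a window and were not tested.

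Some of the genes share exon bases with neighbours in GENCODE release 29, and without a stated strand setting reads of overlapping genes cannot be told apart. CCNE2 shares 37.0% of its exon bases with INTS8 on the opposite strand, which was itself lower at 48 h, at 61.4 ± 2.29 CPM in siANLN and 67.4 ± 4.14 CPM in siNC (log2 -0.13, edgeR Benjamini-Hochberg adjusted p = 0.0199), a smaller change than that of CCNE2. TYMS shares 39.2% with ENOSF1, which was not called (log2 0.06). It also shares 7.41% with TYMSOS on the opposite strand, which averaged 262 counts per library at 48 h and 36.7 at 24 h. TYMSOS was called higher at 48 h (log2 0.20, edgeR Benjamini-Hochberg adjusted p = 0.0377), beside 0.19 for TYMS. MCM2 shares 22.7% with the antisense gene AC023593.1, which averaged 802.5 counts per library at 48 h and 7 at 24 h, and had a log2 change of 0.30 at 48 h beside 0.27 for MCM2. RRM1-AS1, antisense to RRM1 over 1.51% of its exon bases, averaged 274 counts at 48 h and 0.833 at 24 h, with a log2 change of 0.29 beside 0.31 for RRM1. PRIM1 shares 14.9% with AC117378.1 on its own strand, which averaged 2445 counts at 48 h and 0.333 at 24 h. At 48 h AC117378.1 was called higher (log2 0.15, edgeR Benjamini-Hochberg adjusted p = 2.82e-05), while PRIM1 was not called (log2 -0.04). MCM7 shares 8.94% with AP4M1 on the opposite strand, which averaged 499 counts at 48 h and 161 at 24 h and was not called at 48 h (log2 0.03). RRM2 shares 20.2% of its exon bases on its own strand with AC007240.1, which averaged 28 counts per library at 24 h and has no value at 48 h. What part these reads have in the values of the 33 genes was not tested. Processed pseudogenes of FEN1, PCNA, RFC3, RRM2 and TYMS averaged at most 1.17 counts per library, so few reads were assigned to them.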

How the data were processed

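Poly(A) RNA of KYSE150 cells was sequenced as paired reads, per the labels' protocols. Per the submitters' processing notes, the authors used cutadapt 1.18, STAR 2.7.3a (GRCh38), featureCounts for the deposited read counts, and DESeq2 1.44.0. No source used here gives the strand setting or the featureCounts version. The authors' deposited FPKM values were used for levels between genes and in 1 alternative (log2 of FPKM plus 1 or 0.1). There is 1 table per time. At 48 h, 202 IDs were repeated with identical values and kept once.

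Counts were scaled by TMM and tested with edgeR 4.0.16 (R 4.3.3; quasi-likelihood F test, robust, filterByExpr, 6 libraries per time, no covariate, two-sided). P-values were adjusted by Benjamini-Hochberg over all genes tested in a comparison, and a gene was called at an adjusted p under 0.05. Adjusted p-values are from this test unless DESeq2 1.42.0 or limma 3.58.1 is named. Differences between the times were a contrast over 12 libraries and the 35484 IDs in both tables. The fit was tested on simulated data. Intervals are 95% intervals of the fitted log2 change.

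The 33 genes, their roles and the other lists were chosen with earlier results of these data known. All 33 are named, with ANLN and, from each other list, the 2 called genes with the largest absolute log2 change at each time. The MCM shares, the squamous and other markers given by name, GENCODE neighbours and the promoters printed were chosen after values were seen. Alternatives were RLE and plain library size scaling, no filter, DESeq2, limma on FPKM, the replicate number as a block, 1 fit over 12 libraries, and leaving out each library. Promoter windows are RefSeq's on GRCh38.p14, and gene coordinates are those of GENCODE release 29, counted from 1. With 3 libraries a group and the depths given, a log2 standard error of the 33 genes was 0.05 at the median at both times.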

Additional observations from a re-analysis of the deposited data

Results flagged for a closer look

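In 7 of the S phase genes the effect of the knockdown at 48 h differed from that at 24 h by edgeR's test of the difference (Benjamini-Hochberg adjusted over all genes tested), which is why they are listed. The log2 change at 48 h minus that at 24 h was 0.288 for MCM7 (adjusted p = 4.98e-06), 0.266 for RRM2 (adjusted p = 6.94e-06), 0.238 for MCM2 (adjusted p = 0.000474) and 0.213 for RRM1 (adjusted p = 0.000871). It was -1.05 for CCNE1 (adjusted p = 0.00115), -0.182 for PCNA (adjusted p = 0.0122) and -0.426 for CCNE2 (adjusted p = 0.0267). The other 26 genes were not called in this test. Over all 17625 genes tested, 13% were called. For CCNE2 the difference was lost under DESeq2 (adjusted p = 0.0751) and in 7 of the 12 fits that left out a library (siANLN replicate 1 or 2 and siNC replicate 2 or 3 at 24 h, siANLN replicate 1 or 3 and siNC replicate 1 at 48 h; edgeR adjusted p from 0.0662 to 0.131). The PCNA difference was lost without siANLN replicate 1 at 48 h (edgeR adjusted p = 0.0592) and without siNC replicate 2 at 48 h (edgeR adjusted p = 0.05 after rounding). Time point and the making of the tables cannot be told apart. MCM2 and RRM1 have antisense genes whose counts at 48 h were 802.5 and 274 per library, against 7 and 0.833 at 24 h. MCM7 shares 8.94% of its exon bases with AP4M1 on the opposite strand, which averaged 499 counts at 48 h and 161 at 24 h. CCNE2 shares 37.0% with INTS8 on the opposite strand, which averaged 777.5 counts at 48 h and 672 at 24 h. RRM2 shares 20.2% of its exon bases with AC007240.1, which averaged 28 counts per library at 24 h and has no value at 48 h. In siNC, RRM2 had 58.9 FPKM at 312 CPM at 24 h and 34.6 FPKM at 314 CPM at 48 h, so the length behind its FPKM differed. The part of these reads and of this length in the differences was not tested.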

How the results depend on the processing

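No log2 change of a called gene reversed under any alternative. At 24 h, 2 instead of 4 genes were called higher with no filter and on FPKM with a pseudocount of 1 or 0.1, and leaving out each library in turn gave 2 to 4 (2 without siANLN replicate 2, siNC replicate 2 or siNC replicate 3). Calls over all genes at 24 h numbered 1585 in the reported fit, 1398 with no filter, and 822 and 839 on FPKM with a pseudocount of 1 and 0.1. The median log2 change at 24 h was 0.0445 (without siNC replicate 3) to 0.0774 with a library left out. At 48 h, 10 and 11 instead of 18 genes were called higher on FPKM with a pseudocount of 1 and 0.1. Calls over all genes at 48 h numbered 7402 in the reported fit and 5997 and 5999 on FPKM. The median at 48 h was 0.0894 with library size only, where that over all genes was -0.0386. It was 0.0855 and 0.0896 on FPKM with the same pseudocounts, and 0.10 to 0.13 with a library left out. Of the 22 calls at 48 h, 13 were kept in all 14 alternatives. Same-numbered siANLN and siNC libraries did not deviate together (correlations across genes from -0.01 to 0.03), so the numbers do not pair them. With the replicate block 5 genes were higher at 24 h and 17 at 48 h, 4 were lower at 48 h, 7 differed between the times, and the medians were 0.07 and 0.12. FEN1 at 48 h (edgeR adjusted p = 0.051) was lost and MCM5 at 24 h (edgeR adjusted p = 0.0321) was gained. The causes of these shifts were not tested. Depth limits the low genes most: CCNE1 had 38 to 103 counts per library, and E2F2 at 48 h had 0 to 3.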

Other observations

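Genes of G2 and mitosis were read beside the S phase genes. Of 26 tested, 13 rose and 5 fell at 48 h, and 5 rose and 1 fell at 24 h, with a median log2 change of 0.07 at 48 h. Over all genes 22.2% were higher and 21.3% lower at 48 h, and 5.93% and 4.86% at 24 h. BIRC5, survivin, which sits on centromeres and the midzone with Aurora B, had 136, 142 and 141 CPM in siANLN against 83.3, 76.2 and 75.1 CPM in siNC at 48 h (log2 0.84, SE 0.04, edgeR Benjamini-Hochberg adjusted p = 7.24e-62), and 163 ± 3.55 against 128 ± 8.05 CPM at 24 h (log2 0.35). CDC25C, the phosphatase that activates CDK1, had 19.9 ± 0.920 CPM in siANLN against 24.6 ± 0.889 CPM in siNC at 48 h (log2 -0.30). CENPF, a kinetochore protein of G2 and mitosis, had 1259 ± 61.3 CPM in siANLN against 1104 ± 20.8 CPM in siNC at 24 h (log2 0.19).

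Control levels of the S phase genes differed between the tables, which differ both in time and in how they were made. In siNC, RRM2 had 58.9 FPKM at 312 CPM at 24 h and 34.6 FPKM at 314 CPM at 48 h. POLA1 had 13.3 FPKM at 83.6 CPM and 4.39 FPKM at 67.7 CPM. For such genes the length behind FPKM thus differed, unlike for MCM3 (159.8 FPKM at 580 CPM and 110.5 FPKM at 399 CPM). What part this has in the count levels was not tested. In siNC libraries E2F2 averaged 21.2 CPM at 24 h and 0.139 CPM at 48 h, a 152-fold gap. The other 32 genes differed by at most 2.04-fold between the tables. In siNC 27 of these 32 were higher at 24 h, and RRM2 was at 312 CPM at 24 h and 314 CPM at 48 h. TYMS averaged 45.2 CPM at 24 h and 92.4 CPM at 48 h, and CCNE2 18.9 and 32.5 CPM. TYMS shares 39.2% and CCNE2 37.0% of their exon bases with a neighbour on the opposite strand.

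By the authors' deposited FPKM, which scales by length and was ranked here within each time alone, MCM3, PCNA, MCM7 and FEN1 were the 4 highest of the 33 genes in siNC at both times. At 24 h siNC had 159.8 ± 3.59 FPKM for MCM3, 142 ± 4.34 for PCNA, 91.2 ± 5.04 for MCM7 and 89.1 ± 1.05 for FEN1 (n = 3), the last pair within their spread of each other. CCNE1 was lowest at 24 h with 1.96 ± 0.270 FPKM in siNC, and second lowest at 48 h with 2.57 ± 0.581 FPKM, above E2F2.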
